A study of Mus musculus with 10 samples.

Results

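The genes of the voltage-gated sodium and calcium channels were examined in the intermediate lobe (IL) of the mouse pituitary. They were taken as every gene in the deposited table whose symbol starts with Cacna, Cacnb or Cacng or names a sodium channel subunit (Scn with a number and a or b), which gave 40 of 29527 genes. Of these, 26 encode calcium channel subunits or γ proteins and 14 encode sodium channel subunits. RNA from dissected IL of mice aged 2 to 3 months was sequenced in bulk, with 1 library per mouse, from 4 wild-type (WT) mice, 3 p27-/- mice, which lack the cell cycle inhibitor P27 (gene Cdkn1b) throughout the body, and 3 p27-/-;Sox2+/- mice, which in addition carry 1 inactive copy of Sox2, the gene of a transcription factor of stem cells and melanotrophs. The p27-/- and p27-/-;Sox2+/- mice thus share the loss of P27, and both lack it in every cell type and from development on.

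Voltage-gated calcium channels consist of an α1 subunit that forms the pore and senses voltage, joined in the Cav1 and Cav2 classes by an intracellular β and an extracellular α2δ subunit. Sodium channels consist of an α subunit and small β subunits that cross the membrane once. Melanotrophs, the main endocrine cells of the IL, are electrically excitable and release α-melanocyte-stimulating hormone when calcium enters through these channels, and dopamine acting on the D2 receptor restrains this activity.

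The values are log2 normalized counts as the authors deposited them, and the transformation behind them is not named. The genes with the lowest values varied little between samples, with an SD of at most 0.02 for Scn4b in each genotype, and differences of low genes may be understated on this scale. The sequencing depth of each sample cannot be read from the table, and the authors give only an average. The precision of the tests rests on the spread between mice, with 3 or 4 per genotype. The part of depth in that spread was not tested. Tests with limma covered the 17268 genes whose mean reached 10 on the linear scale (3.32 in log2), with Benjamini-Hochberg adjustment over all of them and a threshold of 0.05 on the adjusted p. In these bulk samples fewer cells of a type and less RNA per cell cannot be told apart. The melanotroph markers Pomc, Pax7, Tbx19, Pcsk2 and Drd2 were high in every sample, with Pomc at 18.003 or above. Cdkn1b averaged 8.61 ± 0.19 in the 4 WT, 8.18 ± 0.12 in the 3 p27-/- and 7.89 ± 0.19 in the 3 p27-/-;Sox2+/- samples (log2, ± SD), and values per gene do not show whether the remaining reads fell in the deleted part. Sox2 was between 6.88 and 7.07 in p27-/-;Sox2+/- samples, below all the other samples. Markers of the adjoining lobes varied within genotypes, and the linear sum of 6 posterior lobe markers was 606.1 to 1396 in WT, 499.9 to 558.1 in p27-/- and 421.0 to 1053 in p27-/-;Sox2+/- samples. The linear sum of 5 anterior lobe hormone genes was 14870 to 222300 in WT, 6926 to 96070 in p27-/- and 10760 to 28880 in p27-/-;Sox2+/- samples, and 1 of the 5, Fshb, fell by 2.04 in p27-/- (adjusted p = 0.028) and by 2.27 in p27-/-;Sox2+/- (adjusted p = 0.0294).

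Of the 40 genes, 32 passed the minimum for testing. Cacna1i, which encodes the T-type calcium channel Cav3.3, and Cacng2, which encodes the AMPA receptor auxiliary protein stargazin, rose in both mutant genotypes compared with WT. Scn3b, which encodes the sodium channel subunit β3, rose in p27-/-;Sox2+/- compared with WT. No channel gene fell past the threshold in any comparison in this fit, and some did in alternative fits given below.

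Cacna1i and Cacng2 both lie on chromosome 15 of GRCm38, and their promoters are shown because these are the channel genes that passed the test in both mutants. The windows run from 250 bases before to 50 bases after the start given by RefSeq on GRCm38.p6, and 30 of the 40 genes have such an entry. The window of Cacna1i is chr15:80286988-80287287 on the + strand and that of Cacng2 is chr15:78119231-78119530 on the - strand. The start used for the Cacng2 window lies inside the gene as positioned below, downstream of its outermost 5′ end. Capitals mark ACAAAG, a core sequence bound by SOX factors.
Cacna1i: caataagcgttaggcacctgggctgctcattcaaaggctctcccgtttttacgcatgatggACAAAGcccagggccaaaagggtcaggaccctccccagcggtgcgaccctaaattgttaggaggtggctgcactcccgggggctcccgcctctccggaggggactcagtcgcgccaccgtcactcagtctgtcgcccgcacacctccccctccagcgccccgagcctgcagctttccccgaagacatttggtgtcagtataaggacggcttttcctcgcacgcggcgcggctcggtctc
Cacng2: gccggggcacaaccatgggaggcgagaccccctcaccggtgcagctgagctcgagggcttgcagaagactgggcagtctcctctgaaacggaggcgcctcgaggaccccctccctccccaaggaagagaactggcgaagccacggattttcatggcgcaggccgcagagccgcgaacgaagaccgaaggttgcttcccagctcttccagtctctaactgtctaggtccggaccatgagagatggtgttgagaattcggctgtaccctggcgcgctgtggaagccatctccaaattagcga

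The Cacna1i window had a GC content of 62.7% and 23 CpG dinucleotides, and that of Cacng2 a GC content of 61.0% and 20, against medians of 52.7% and 7 over 32851 RefSeq promoters. ACAAAG was searched on both strands and was found once in the Cacna1i window, at bases 62 to 67, and not in that of Cacng2, and it is held by 18.7% of all promoter windows. Neither window held, on either strand, the second SOX core ACAATG (12.6% of all windows), the E2F sites TTTCCCGC (1.07%) and TTTGGCGC (0.514%), the RE1 parts TTCAGCACC (0.371%) and GGACAGC (6.56%), the T-box site AGGTGTGA (1.28%), the TATA box TATAAA (13.6%) or the GC box GGGCGG (35.7%). These matches describe the letters of the windows only.

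The channel genes spanned a wide range of levels, with log2 values between -1.09 for Cacng1 and 11.99 for Cacna2d1. To compare levels between genes, the WT mean log2 value was corrected for the length of the longest annotated transcript, in kilobases. On this scale Cacna1d, the L-type channel Cav1.3, led the Cav1 class with a level of 7.38, above Cacna1c (Cav1.2) at 5.65 and Cacna1f (Cav1.4) at 2.01. In the Cav2 class Cacna1a (P/Q-type) had a level per kilobase of 6.60, followed by Cacna1b (N-type) at 6.09 and Cacna1e (R-type) at 2.48. The T-type channels had lower levels per kilobase, 3.93 for Cacna1i, 3.18 for Cacna1g and 0.50 for Cacna1h. Thus the pore-forming calcium channel genes with the highest levels in WT IL were those of high-voltage-activated channels of the L, P/Q and N types.

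Among the auxiliary calcium channel genes, Cacna2d1, whose protein binds gabapentin, had the highest WT level per kilobase of all 40 genes at 8.82. Cacna2d2 followed in the α2δ class at 7.18 and Cacna2d3 at 3.43. Of the β subunits Cacnb2 and Cacnb3 had levels per kilobase of 8.10 and 7.70, and Cacnb1 and Cacnb4 of 5.12 and 5.02. Cacng7 led the γ proteins at 7.72. The levels of Cacng8 and Cacng6, 5.78 and 5.67, rest on transcript models of only 663 and 783 bases and are uncertain.

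Of the sodium channel α subunits, Scn7a, the sodium-sensing channel Nax, had a WT level per kilobase of 8.19 but varied widely between samples. Scn2a (Nav1.2), Scn3a (Nav1.3) and Scn8a (Nav1.6) had levels of 7.54, 7.004 and 5.77, and Scn9a (Nav1.7) and Scn1a (Nav1.1) of 4.202 and 2.46. Scn3b led the β subunits at 5.62, followed by Scn2b at 5.26. The 8 genes under the minimum were Cacna1s and Scn4a, the channels of skeletal muscle, Cacng1, the skeletal muscle γ subunit, Scn10a and Scn11a, the channels of sensory neurons, and Cacna2d4, Cacng3 and Scn4b. Their values in single samples lay between -1.09 and 3.10, with Cacna2d4 the highest.

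**Figure D1:**
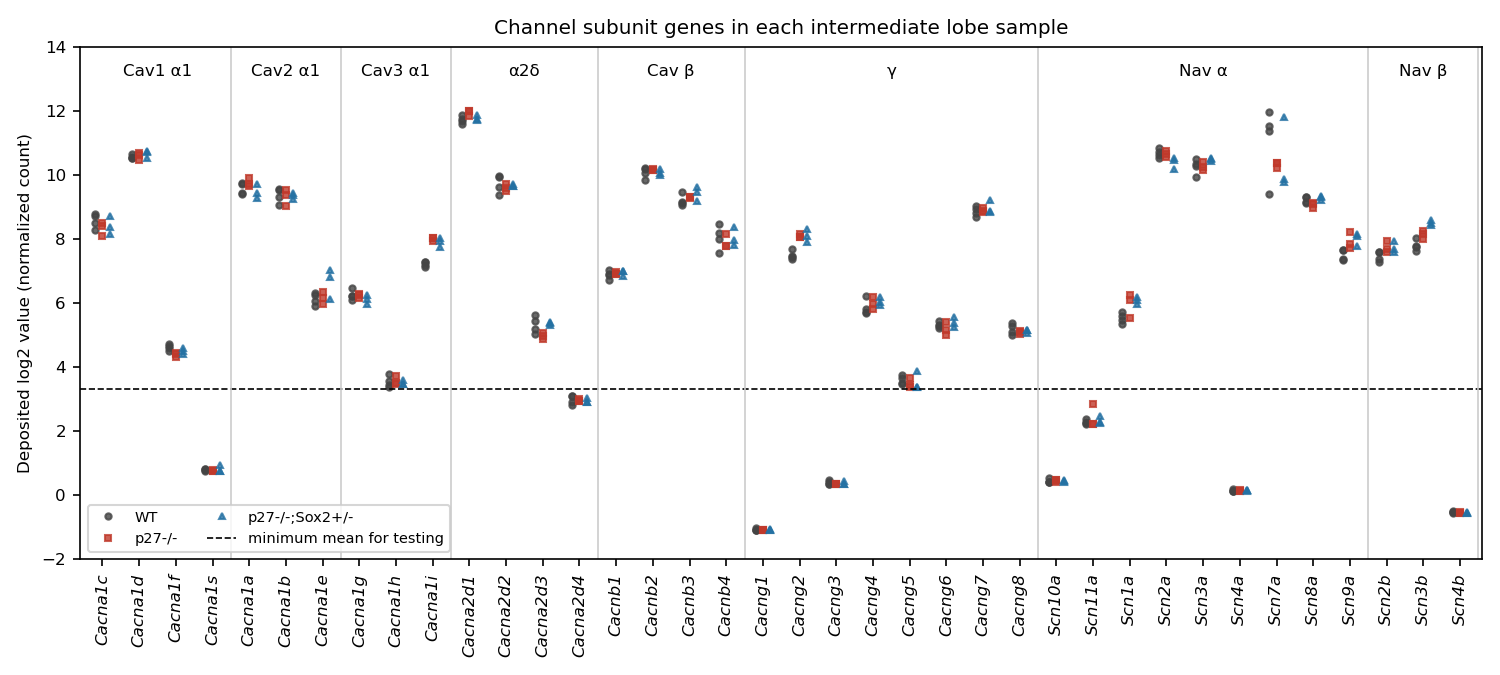
Deposited log2 values of the channel genes reported by name in each of the 10 samples, ordered by subunit class on the horizontal axis, with WT as circles, p27-/- as squares and p27-/-;Sox2+/- as triangles. The dashed line is the minimum mean for testing of 3.32, and values between genes are not corrected for length. Most genes have samples of the 3 genotypes close together, and Scn7a is spread from 9.41 to 11.96.

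Loss of P27 alone was examined first. In p27-/- samples 2 of the 32 tested channel genes passed the threshold, Cacna1i and Cacng2, both higher than in WT, while 7.78% of all tested genes did. The share higher past the threshold among all tested genes was 3.16% and the share lower 4.62%. The samples of the 2 genotypes did not overlap for 5 of the 32 genes, 3 higher and 2 lower, against 20.6% of all tested genes (10.2% higher and 10.3% lower). The median log2 difference was 0.01 for the channel genes and 0.01 for all tested genes. An unadjusted p under 0.05 was found for 10 of the 32 genes and for 24.1% of all tested genes, and the share of channel genes called was close to that of all tested genes.

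In p27-/-;Sox2+/- compared with WT samples, 3 of the 32 genes passed the threshold, Cacna1i, Cacng2 and Scn3b, all higher, against 2.71% of all tested genes (0.828% higher and 1.88% lower). The samples did not overlap for 7 genes, 5 higher and 2 lower, against 15.0% of all tested genes (7.02% higher and 8.01% lower). An unadjusted p under 0.05 was found for 9 of the 32 genes and for 17.8% of all tested genes. The median log2 difference was 0.05 for the channel genes and 0.01 for all tested genes. With weights for the quality of each sample 8 channel genes passed, 6 higher and 2 lower. Scn1a, Scn9a and Cacna1e were added as higher. With these weights 1240 of all 17268 tested genes passed, against 468 without them.

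Between p27-/-;Sox2+/- and p27-/- samples no channel gene passed the threshold in limma, against 0.145% of all tested genes (0.0811% higher and 0.0637% lower). An unadjusted p under 0.05 was found for 5 of the 32 genes and for 6.65% of all tested genes. The samples did not overlap for 5 genes, Cacna2d3, Scn3a, Scn3b and Scn8a higher and Scn2a lower in p27-/-;Sox2+/-, against 15.3% of all tested genes (7.51% higher and 7.75% lower). With sample weights 2 genes passed, Scn3b and Cacna1e. Among all tested genes 283 passed with these weights and 25 without them. Both comparisons with WT use the same 4 WT samples, and their values are given side by side.

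**Figure D2:**
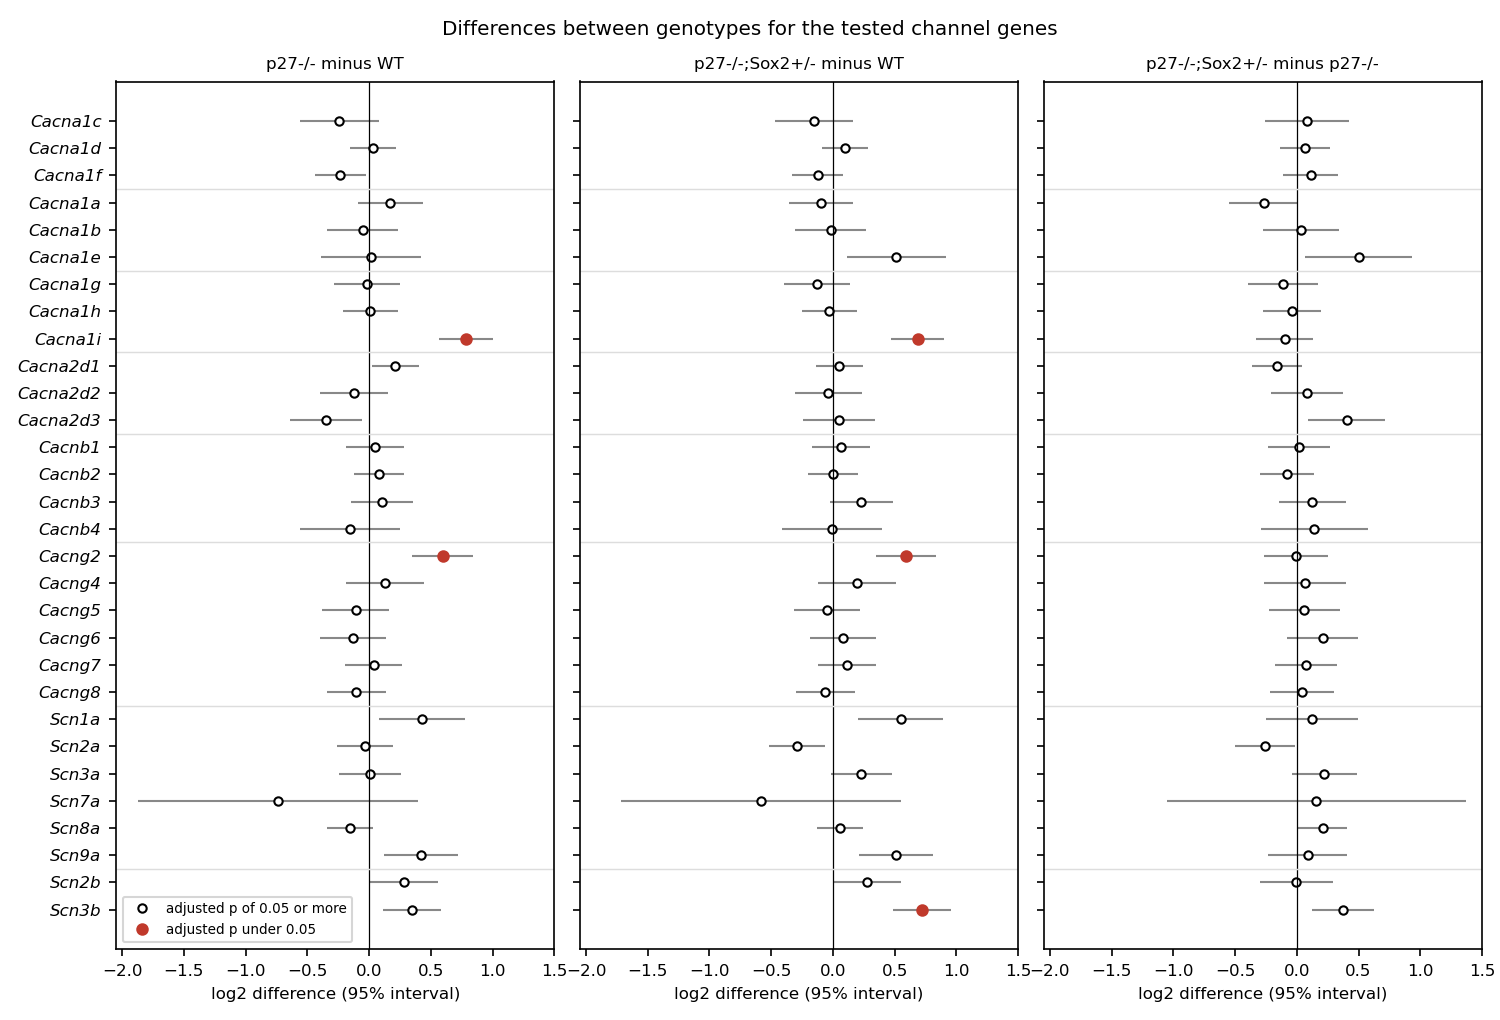
Log2 differences of the tested channel genes reported by name (points) with 95% intervals (lines) in the 3 comparisons, from the limma fit of all 10 samples, ordered by subunit class. Filled points passed an adjusted p of 0.05, Cacna1i and Cacng2 in both comparisons with WT and Scn3b in p27-/-;Sox2+/- minus WT, and none between the mutants.

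Cacna1i (ENSMUSG00000022416, chr15:80287238-80398292) encodes a T-type channel, which opens near the resting potential and inactivates slowly compared with the other T-type channels. Its log2 values were 7.13, 7.29, 7.29 and 7.18 in WT, 7.95, 8.04 and 8.03 in p27-/- and 8.03, 7.94 and 7.75 in p27-/-;Sox2+/- samples. Every mutant sample lay above every WT sample, and the mutant genotypes overlapped each other. Cacna1i rose by 0.78 on the log2 scale in p27-/- (SE 0.10, adjusted p = 0.000841), which is 1.72-fold. In p27-/-;Sox2+/- it rose by 0.69 (SE 0.10, adjusted p = 0.00484), or 1.61-fold. The difference between the mutants was -0.10 with a 95% interval from -0.33 to 0.13. The other T-type genes, Cacna1g and Cacna1h, did not pass the test, with log2 differences in p27-/- of -0.02 and 0.01 and in p27-/-;Sox2+/- of -0.13 and -0.03. The call held with each sample left out (adjusted p up to 0.00825 in p27-/- and 0.0383 in p27-/-;Sox2+/-), and with the mean of the posterior lobe markers in the model p27-/- samples kept a log2 difference of 0.69 at an adjusted p of 0.0167, while p27-/-;Sox2+/- samples had one of 0.59, where the call was lost (adjusted p = 0.0578).

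Cacng2 (ENSMUSG00000019146, chr15:77991919-78120220) is named for its likeness to a calcium channel γ subunit, but its protein is best known for carrying AMPA-type glutamate receptors to the cell surface. Its log2 values were 7.69, 7.48, 7.39 and 7.45 in WT, 8.07, 8.06 and 8.15 in p27-/- and 8.30, 8.08 and 7.90 in p27-/-;Sox2+/- samples. Both mutant genotypes lay wholly above WT. Cacng2 rose by 0.59 in p27-/- (SE 0.11, adjusted p = 0.00816), or 1.51-fold, and by 0.59 in p27-/-;Sox2+/- (SE 0.11, adjusted p = 0.0154). The mutants differed by less than 0.01, with a 95% interval from -0.26 to 0.26. The call in p27-/-;Sox2+/- was lost without p27-/-;Sox2+/- replicate 1 (adjusted p = 0.0778), without replicate 2 (0.0768), with the replicate number as a block (0.053) and with the anterior lobe hormone markers in the model (0.0639). With the posterior lobe markers in the model Cacng2 passed in neither mutant (adjusted p = 0.0919 and 0.141), with log2 differences of 0.52 and 0.51.

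Cacng4, Cacng5, Cacng7 and Cacng8, other γ proteins that act on AMPA receptors, did not pass the test in any comparison. Cacng3 was under the minimum and was not tested. Cacng7, the most abundant γ gene, averaged 8.87 ± 0.14 in the 4 WT, 8.90 ± 0.06 in the 3 p27-/- and 8.98 ± 0.20 in the 3 p27-/-;Sox2+/- samples (log2, ± SD). Its difference from WT had a 95% interval from -0.20 to 0.27 in p27-/- and from -0.12 to 0.34 in p27-/-;Sox2+/-. The gap between Cacng2 and Cacna1i on chromosome 15 is 2.17 Mb and holds 52 tested genes. Of these, 2 rose in p27-/-, Mfng and Atf4, against 3.16% higher among all tested genes, and 0 passed in p27-/-;Sox2+/- compared with WT in limma.

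Scn3b (ENSMUSG00000049281, chr9:40269216-40291618) encodes β3, a subunit that modifies the gating and surface level of sodium channels. Its log2 values were 7.62, 7.75, 7.77 and 8.03 in WT, 8.01, 8.24 and 8.17 in p27-/- and 8.45, 8.59 and 8.50 in p27-/-;Sox2+/- samples. The p27-/-;Sox2+/- samples lay above all others, and the lowest p27-/- sample lay just below the highest WT sample. Scn3b rose by 0.72 in p27-/-;Sox2+/- compared with WT (SE 0.11, adjusted p = 0.00525), or 1.65-fold. In p27-/- its difference from WT was 0.35 (95% interval 0.11 to 0.58, adjusted p = 0.0692), and without WT replicate 4 it passed at 0.43 (adjusted p = 0.0412). The difference between the mutants was 0.37 (95% interval 0.12 to 0.62), which did not pass after adjustment over all genes (adjusted p = 0.40). Scn2b, the gene of β2, had log2 differences of 0.28 in both mutants and passed in neither (adjusted p = 0.20 and 0.28).

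**Figure D3:**
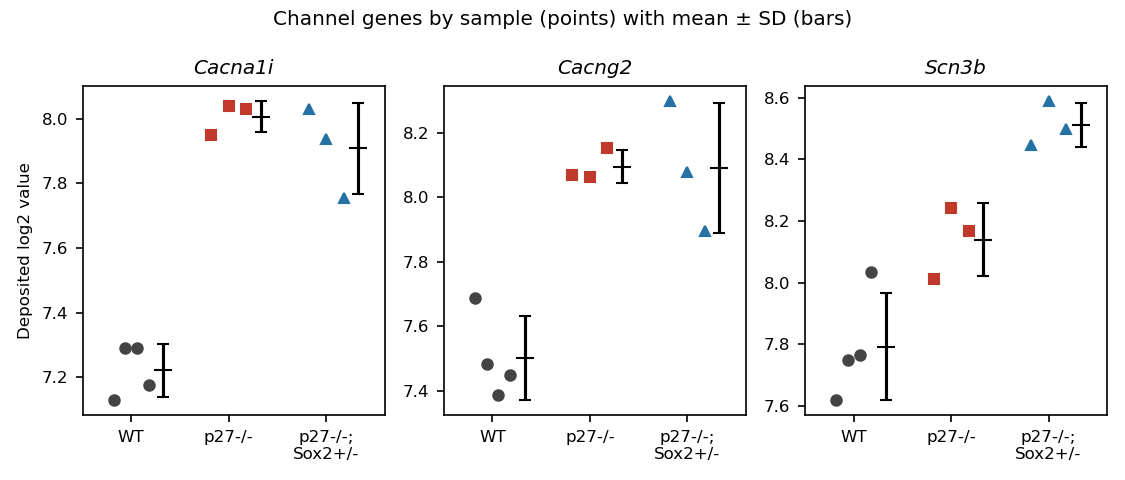
Deposited log2 values of Cacna1i, Cacng2 and Scn3b in each sample (points) by genotype, with the mean ± SD of the genotype as a bar beside them (n = 4 WT, 3 p27-/- and 3 p27-/-;Sox2+/-). The vertical axes do not start at 0 and differ between genes. Mutant samples of Cacna1i and Cacng2 lie above all WT samples, and Scn3b is highest in p27-/-;Sox2+/-.

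Some genes listed as markers of neurons were higher in p27-/- samples. Cacna1i and Cacng2 were higher in both mutants, and the part of the neuron markers in the result was not tested. Of 5 neuron markers, 3 rose in p27-/- compared with WT, Gad2, Rbfox3 and Syt1, against 3.16% higher among all tested genes. In p27-/-;Sox2+/- compared with WT 0 passed. Gad2 was lower past the threshold in p27-/-;Sox2+/- than in p27-/-, with a log2 difference of -1.19. The linear sum of the 5 markers was 7632 to 8939 in WT, 10240 to 11820 in p27-/- and 8230 to 9226 in p27-/-;Sox2+/- samples. None was listed at 0, and endocrine cells also express Syt1. Gad2, Rbfox3 and Syt1 were at 8.75 or above in log2 in every sample. Slc17a6 and Slc17a7, which did not pass, were between 4.59 and 6.78. Whether the values of the 5 genes come from neurons was not tested. Pcsk2, a melanotroph convertase, rose by 0.53 in p27-/- (adjusted p = 0.0352). The endothelial marker Kdr fell in both mutants, by 0.83 in p27-/- and by 0.67 in p27-/-;Sox2+/-.

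The α subunit genes of sodium channels did not pass the threshold in any comparison. Scn9a and Scn1a, chosen here after their values were seen, came closest among those higher in the mutants. Scn9a (chr2:66480080-66635114) had log2 values of 7.36, 7.33, 7.65 and 7.66 in WT, 8.20, 7.83 and 7.73 in p27-/- and 7.79, 8.15 and 8.08 in p27-/-;Sox2+/- samples. All mutant samples of Scn9a were above all WT samples, with log2 differences of 0.42 (adjusted p = 0.0817) and 0.51 (adjusted p = 0.0709). For Scn1a the difference from WT was 0.43 with an adjusted p of 0.124 in p27-/-, and 0.55 with an adjusted p of 0.0899 in p27-/-;Sox2+/-. Its value of 5.53 in p27-/- replicate 3 lay within WT (5.33 to 5.72), and the other mutant samples were at 5.97 to 6.24. Without that sample Scn1a passed in p27-/-.

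Scn2a, Scn3a and Scn8a, the more abundant neuronal α subunits, are given next. The log2 difference of Scn2a was -0.03 in p27-/- and -0.29 in p27-/-;Sox2+/- (95% interval -0.51 to -0.06, adjusted p = 0.16). Between the mutants it was -0.26 (95% interval -0.50 to -0.02, adjusted p = 0.69). Scn3a had differences of 0.01 in p27-/-, 0.23 in p27-/-;Sox2+/- (adjusted p = 0.32) and 0.22 between the mutants (adjusted p = 0.85). That of Scn8a from WT was -0.15 in p27-/- and 0.06 in p27-/-;Sox2+/-. Between the mutants the difference of Scn8a was 0.21 (95% interval 0.01 to 0.41, adjusted p = 0.69).

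Scn7a (ENSMUSG00000034810, chr2:66673426-66784910) encodes Nax, a channel that senses extracellular sodium and is known from glial cells. Its log2 values were 11.36, 9.41, 11.54 and 11.96 in WT, 10.39, 10.21 and 10.39 in p27-/- and 9.77, 9.87 and 11.82 in p27-/-;Sox2+/- samples. WT replicate 2 was the lowest of all 10 samples and p27-/-;Sox2+/- replicate 3 was the second highest, so that the genotypes overlapped. The SD was 1.13 in WT and 1.16 in p27-/-;Sox2+/- samples, while the second largest SDs among the tested channel genes were 0.38 and 0.46. The log2 difference from WT was -0.74 in p27-/- (95% interval -1.87 to 0.39, adjusted p = 0.42) and -0.58 in p27-/-;Sox2+/- (95% interval -1.72 to 0.55, adjusted p = 0.60).

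The mean log2 value of the posterior lobe markers moved with Scn7a across samples. The 4 samples with Scn7a at 11.36 or above were the same 4 samples with a posterior lobe mean of 6.14 or above, and the other 6 were at most 10.39 and 5.58. With this mean in the model the log2 difference of Scn7a from WT turned positive, to 0.57 in p27-/- at an adjusted p of 0.0656 and to 0.72 in p27-/-;Sox2+/- at an adjusted p of 0.0481. The direction of the Scn7a difference therefore depends on whether the posterior lobe markers are in the model.

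**Figure D4:**
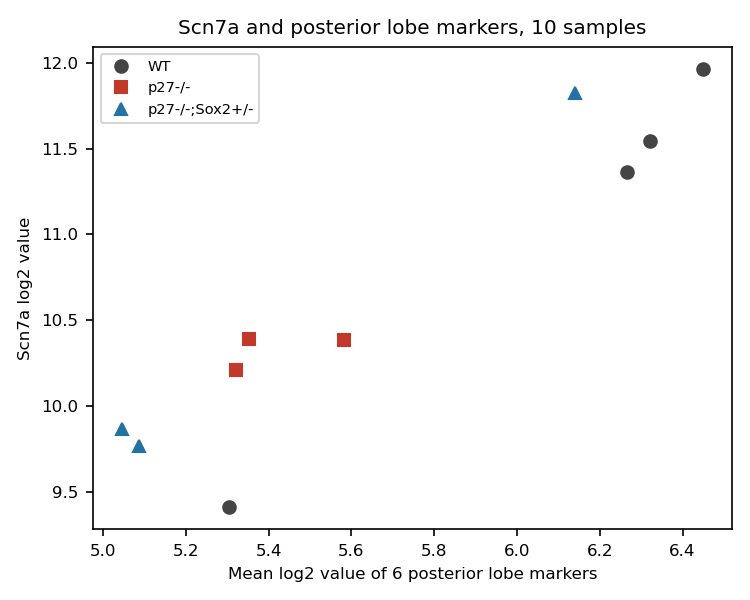
Log2 value of Scn7a (vertical axis) against the mean log2 value of 6 posterior lobe markers (horizontal axis) in the 10 samples, with WT as circles, p27-/- as squares and p27-/-;Sox2+/- as triangles. The 3 WT samples and 1 p27-/-;Sox2+/- sample with Scn7a of 11.36 or above lie at the right, and the remaining 6 at the lower left.

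Of the high-voltage-activated α1 genes, 0 of 6 tested passed in any comparison in limma without sample weights. Among all tested genes 7.78% passed in p27-/- minus WT, 2.71% in p27-/-;Sox2+/- minus WT and 0.145% between the mutants. With so few genes this count does not tell the class apart from all tested genes. Cacna1d (chr14:30039941-30491156) averaged 10.57 ± 0.07 in the 4 WT, 10.60 ± 0.11 in the 3 p27-/- and 10.67 ± 0.12 in the 3 p27-/-;Sox2+/- samples (log2, ± SD). The 95% intervals of its difference from WT were -0.16 to 0.22 in p27-/- and -0.09 to 0.28 in p27-/-;Sox2+/-. Cacna1a had 9.58 ± 0.19, 9.75 ± 0.13 and 9.49 ± 0.22 in the 3 genotypes, and its difference between the mutants was -0.27 (95% interval -0.55 to 0.01). Cacna1f was lower in all p27-/- samples (4.31 to 4.42) than in all WT samples (4.51 to 4.72), with a difference of -0.23 (adjusted p = 0.153).

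Cacna1e (chr1:154390806-154884785), the R-type channel, had log2 values of 5.91, 6.33, 6.07 and 6.26 in WT, 6.17, 5.96 and 6.34 in p27-/- and 6.81, 7.03 and 6.14 in p27-/-;Sox2+/- samples. Replicates 1 and 2 of p27-/-;Sox2+/- were above all other samples and replicate 3 was within the WT range. Its log2 difference in p27-/-;Sox2+/- was 0.51 from WT (adjusted p = 0.163) and 0.50 from p27-/- (adjusted p = 0.63). Without p27-/-;Sox2+/- replicate 3, Cacna1e passed against WT at 0.77 (adjusted p = 0.0366). With each sample left out in turn this difference ranged from 0.33 to 0.77, and over the other alternatives from 0.24 to 0.66. Over those other alternatives its adjusted p in limma ranged from 0.0418 to 0.71.

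No β or α2δ gene passed the threshold. Cacnb2, the most abundant β gene, averaged 10.08 ± 0.17 in the 4 WT, 10.16 ± 0.01 in the 3 p27-/- and 10.08 ± 0.10 in the 3 p27-/-;Sox2+/- samples (log2, ± SD). Cacna2d1 differed from WT by 0.21 in p27-/- (95% interval 0.02 to 0.40, adjusted p = 0.167) and by 0.05 in p27-/-;Sox2+/-. Cacna2d3 (chr14:28904943-29722775) had log2 values of 5.03, 5.18, 5.42 and 5.62 in WT, 4.87, 5.05 and 4.97 in p27-/- and 5.38, 5.42 and 5.30 in p27-/-;Sox2+/- samples. The mutants did not overlap for Cacna2d3, with a difference of 0.40 (95% interval 0.09 to 0.71) that did not pass (adjusted p = 0.53). Its difference from WT was -0.35 in p27-/- (adjusted p = 0.129), and without WT replicate 1 it passed at -0.45 (adjusted p = 0.0442).

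Genes whose proteins act with the channels were taken as 3 lists, modulators of sodium channels, modulators of calcium channels and the sodium leak channel complex. Of 28 tested partner genes, 1 fell in p27-/-, Cachd1, against 4.62% lower among all tested genes, and 0 passed in the other comparisons in limma. Cachd1 encodes a membrane protein of the α2δ type that modulates T-type channels. Its log2 values were 8.15, 7.76, 8.04 and 7.9998 in WT, 7.21, 7.43 and 7.30 in p27-/- and 7.49, 7.46 and 7.67 in p27-/-;Sox2+/- samples, so that both mutants lay below WT. Cachd1 fell by 0.67 in p27-/- (adjusted p = 0.0043) and differed by -0.45 in p27-/-;Sox2+/- (adjusted p = 0.0524).

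The list of genes of calcium stores and calcium clearance, like the other lists, was chosen with earlier results of these data known. Its counts beside those of all tested genes are descriptive only. Of its 20 tested genes, 5 fell in p27-/- and none rose, against 4.62% lower and 3.16% higher among all tested genes. They were Itpr1 (log2 difference -0.70, adjusted p = 0.0015) and Itpr2 (-0.80, 0.0015), which encode receptors that release calcium from the endoplasmic reticulum on binding inositol trisphosphate, Ryr3 (-0.69, 0.0352), a ryanodine receptor, Atp2a3 (-0.72, 0.0093), a pump that refills the store, and Stim1 (-0.39, 0.0238), a sensor of store calcium. In p27-/-;Sox2+/- compared with WT, 2 of the 20 fell, Atp2a3 by 0.81 (adjusted p = 0.0104) and Itpr2 by 0.51 (adjusted p = 0.0304), against 1.88% lower among all tested genes. Itpr1 differed by 0.52 between the mutants, which did not pass (adjusted p = 0.105). All 6 posterior lobe markers were lower in both mutants, with median log2 differences of -0.66 in p27-/- and -0.62 in p27-/-;Sox2+/-. Of the 6, Cd59a passed the threshold in p27-/- and none did in p27-/-;Sox2+/-. Their sum given above lay wholly below WT in p27-/- and overlapped WT in p27-/-;Sox2+/-. The endothelial marker Kdr fell in both mutants, and Pdgfra, 1 of 7 fibroblast and mural markers, fell in p27-/-. All 5 stem cell markers were lower in p27-/-, none past the threshold. The part of these markers in the fall of the calcium store genes was not tested.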

How the data were processed

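The authors extracted RNA from dissected IL, made libraries with Ovation kits, aligned the reads with STAR 2.5.2a, estimated counts for each gene without regard to strand with RSEM (Ensembl annotation of GRCm38), normalized them with DESeq2 1.18.1 and deposited 1 table of log2 values. The transformation is not named in the sources used here. Reads of overlapping genes on opposite strands cannot be told apart. Replicates are separate mice.

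Symbols came from the Ensembl identifiers, 1 through a RefSeq synonym. Genotypes were compared in R 4.3.3 with limma 3.58.1 (lmFit, contrasts.fit, eBayes with trend) on 10 samples in 1 fit, which was tested on simulated data. For p27-/- minus WT, with 200 of 17268 genes changed, the fit recovered 33.5% of simulated log2 changes of 0.5 and 97% of those of 1. A gene that did not pass may therefore still differ by such smaller amounts. In the data 1343 genes were called in this comparison, and the share recovered there may differ from that in the simulation. The other comparisons were not simulated. Figures were drawn with matplotlib 3.10.9. The members and lists were chosen with earlier results of these data known. Channel genes given with values per sample or genotype were those past the threshold, the 3 with the smallest p in each comparison and the most abundant of each class. Scn9a, Scn1a and Cacna1f were given outside this rule. Counts cover all channel genes, of which 2 are not reported by name here. Gene positions and promoters are from RefSeq GRCm38.p6, and transcript lengths from GENCODE M1. Alternatives were no filter, a minimum mean of 50, a fit of only the genotypes compared, no trend, sample weights (limma's array weights), quantile normalization, centring of each sample on its median, a block for the replicate number, a covariate (Xist, posterior lobe or anterior lobe markers), and each sample left out. Other pseudocounts do not apply to log2 values.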

Additional observations from a re-analysis of the deposited data

Results flagged for a closer look

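The mean log2 value of the posterior lobe markers was 5.30 in WT replicate 2 and between 6.27 and 6.45 in the other WT samples, so that the gap to the nearest sample took 0.839 of the range of the group. This was the only one of 41 measures, 32 tested channel genes and 9 marker lists, in which a WT sample stood apart by this rule, and chance flags about 1 in 20. Scn7a was also lowest in WT replicate 2, at 9.41, and its part was not tested beyond the model with the posterior lobe markers.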

How the results depend on the processing

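Of 690 alternative values for 11 named channel genes in the 3 comparisons, 647 kept their direction and their side of the threshold, 30 turned in direction, 7 lost the call and 6 gained it. The number of channel genes called was 2 to 3 in p27-/- minus WT, 2 to 4 in p27-/-;Sox2+/- minus WT and 0 between the mutants with a sample left out. It moved to 1 in p27-/- minus WT with the posterior lobe markers as a covariate. With array weights it moved to 8 in p27-/-;Sox2+/- minus WT, 6 higher and 2 lower, and to 2 between the mutants. In p27-/- minus WT 3 passed without the trend and with the anterior lobe markers, in each case 2 higher and 1 lower. Calls among all 17268 tested genes moved too, from 1343 to 239 with the posterior lobe markers in p27-/- minus WT. With array weights they moved from 468 to 1240 in p27-/-;Sox2+/- minus WT and from 25 to 283 between the mutants. Differences that turned in direction, none of them called except Scn7a at 0.72, had these values, and the cause was not tested. In p27-/- minus WT, Cacna1e was -0.0415 with array weights and -0.26 with the posterior lobe markers, Cacna1d was -0.0371 after quantile normalization, -0.0181 with the posterior lobe and -0.0104 with the anterior lobe markers, Cacng7 was -0.0391 with the anterior lobe markers and Scn7a was 0.57 with the posterior lobe markers. In p27-/-;Sox2+/- minus WT, Cacnb2 was -0.0301 with array weights, -0.0212 after quantile normalization and -0.0145 with the posterior lobe markers, Cacna2d3 was -0.0239 with the anterior lobe markers and Scn7a was 0.72 with the posterior lobe markers. Between the mutants, Scn7a was -0.18 with array weights.

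With a sample left out, the ranges that crossed 0 were, in p27-/- minus WT, -0.0809 to 0.113 for Cacna1e, -0.0185 to 0.0904 for Cacna1d and -0.0225 to 0.0876 for Cacng7. In p27-/-;Sox2+/- minus WT they were -0.22 to 0.0028 for Cacna1a, -0.0042 to 0.0985 for Cacna2d1, -0.0433 to 0.154 for Cacna2d3, -0.0746 to 0.0487 for Cacnb2 and -0.0061 to 0.17 for Cacng7. Between the mutants they were -0.108 to 0.0938 for Cacng2, -0.0416 to 0.135 for Cacng7 and -0.51 to 0.52 for Scn7a. With the replicate number as a block, Cacng2 had a difference of 0.57 in p27-/-;Sox2+/- minus WT and lost its call (adjusted p = 0.053), no other call of a named gene changed, and the number of genes called was 2 in p27-/- minus WT, 2 in p27-/-;Sox2+/- minus WT and 0 between the mutants. The numbers do not pair the samples: deviations of same-numbered samples correlated between -0.24 and 0.18 over 9 pairs, and those of other pairs between -0.19 and 0.26 over 24. The depth of each sample is unknown, and differences of low genes may be understated on this scale.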

Other observations

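The AMPA receptor subunit genes, whose proteins Cacng2 carries to the cell surface, were looked up after the rise of Cacng2 was seen and were not tested as a group. Gria2 had the highest values, averaging 12.11 ± 0.36 in the 4 WT, 12.34 ± 0.07 in the 3 p27-/- and 12.35 ± 0.07 in the 3 p27-/-;Sox2+/- samples (± SD). Gria1 had means of 8.56, 8.75 and 8.44 and Gria4 of 8.84, 8.53 and 8.80 in the same order. In that order Gria3 had means of 8.63 ± 0.62, 7.87 ± 0.03 and 8.02 ± 0.67 (± SD).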
